A study of Mus musculus with 4 samples.

Results

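The Sox genes *Sox4*, *Sox9*, *Sox10* and *Sox11* were followed through the luminal cells of the mouse mammary gland, 4 of the 52636 genes of the deposited table. They were taken by gene symbol, and they had been selected from measured values of these cells, the levels by class and the difference of *Sox4* between genotypes in cluster 11 among them. Their levels and differences are therefore given as a description, with no test. Single cells were sequenced on the 10× Chromium platform (3′ v2 chemistry) from luminal cells sorted out of thoracic and abdominal glands at 6 weeks of age. The control (WT) was ErbB3+/+;MMTV-Cre and the mutant (V943R) was ErbB3V943R/V943R;MMTV-Cre, in which Cre removes a loxP-flanked wild-type cDNA minicassette so that the ErbB3 receptor made cannot activate its partner kinase. Both groups carried MMTV-Cre, a transgene that drives Cre in mammary epithelium, and the targeted allele was made in and kept on C57BL/6N. The glands of 3 mice were pooled for each genotype and each pool gave 2 libraries, called A and B here, so that the libraries show the technical spread of 1 pool and not the spread between mice.

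Sox proteins are transcription factors that bind the minor groove of DNA through an HMG box and bend it. *Sox4* and *Sox11*, with *Sox12*, form the SoxC group, known from progenitor cells and developing neurons, and *Sox4* is also active in many epithelia and in cells that lose epithelial features. *Sox9* and *Sox10*, with *Sox8*, form the SoxE group. *Sox9* is best known from cartilage and from progenitors of glandular epithelia, and *Sox10* from the neural crest, Schwann cells and the progenitor compartment of the mammary gland.

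The coding bases of the HMG box, read 5′ to 3′ on the coding strand from GENCODE M21 on GRCm38, are shown because they separate the members into these groups. Capitals mark the 32 of 237 positions at which *Sox4* and *Sox11* share a base and *Sox9* and *Sox10* share a different one.
Sox4: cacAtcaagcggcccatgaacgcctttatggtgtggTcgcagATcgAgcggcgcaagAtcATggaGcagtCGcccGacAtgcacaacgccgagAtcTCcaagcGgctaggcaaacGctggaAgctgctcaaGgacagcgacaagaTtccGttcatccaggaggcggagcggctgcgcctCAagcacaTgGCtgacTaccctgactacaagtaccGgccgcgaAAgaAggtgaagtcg
Sox11: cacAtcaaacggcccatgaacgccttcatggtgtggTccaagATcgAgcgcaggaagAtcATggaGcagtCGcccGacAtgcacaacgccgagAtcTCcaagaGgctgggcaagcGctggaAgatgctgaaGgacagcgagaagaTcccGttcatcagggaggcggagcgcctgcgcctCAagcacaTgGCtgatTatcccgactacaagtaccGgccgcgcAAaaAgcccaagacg
Sox9: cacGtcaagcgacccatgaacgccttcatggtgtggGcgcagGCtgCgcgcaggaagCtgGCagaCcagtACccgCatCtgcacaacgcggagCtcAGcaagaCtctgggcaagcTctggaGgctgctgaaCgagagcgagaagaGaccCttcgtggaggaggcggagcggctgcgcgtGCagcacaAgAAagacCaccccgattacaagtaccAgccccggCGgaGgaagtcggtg
Sox10: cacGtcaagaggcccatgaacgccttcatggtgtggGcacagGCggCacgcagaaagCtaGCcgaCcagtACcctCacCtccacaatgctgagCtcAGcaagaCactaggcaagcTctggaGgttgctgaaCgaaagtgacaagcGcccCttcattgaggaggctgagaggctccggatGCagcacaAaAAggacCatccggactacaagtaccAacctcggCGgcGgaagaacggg
The boxes of *Sox4* and *Sox11* had the same base at 211 positions (89%) and those of *Sox9* and *Sox10* at 197 (83.1%), against 161 to 171 positions for the pairs that cross the groups. *Sox4* (ENSMUSG00000076431, chr13:28948919-28953713, minus strand) and *Sox11* (ENSMUSG00000063632, chr12:27334264-27342574, minus strand) have 1 exon each, which holds the box at chr13:28952614-28952850 and chr12:27342031-27342267. *Sox9* (ENSMUSG00000000567, chr11:112782224-112787760, plus strand) has 3 exons with the box split over exons 1 and 2. *Sox10* (ENSMUSG00000033006, chr15:79154908-79165240, minus strand) has 4 exons with the box split over exons 2 and 3. An annotated lincRNA on the opposite strand, Gm26735, overlaps *Sox4* and had 1138 unique molecular identifiers (UMIs) against 88844 for *Sox4*, and whether strand was used in counting was not given in the sources used here.

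The table held 32439 cells in 13 clusters, grouped by the authors as luminal progenitor (LP, clusters 1 and 2), luminal intermediate (LI, cluster 3), mature luminal (ML, clusters 4 to 11) and rare cells (clusters 12 and 13). The 4 libraries held 6849 to 9627 cells each, with a median of 3154 to 4027 UMIs per cell. In all, 511 cell barcodes occurred in more than 1 library, 334 of them in both genotypes, out of 31923 distinct barcodes. The markers went with the labels: the 7 LP markers together stood at 4163 CPM (UMIs per 1000000 UMIs of all genes in the same cells) in WT LP cells and 74.7 CPM in WT ML cells, and the 7 ML markers at 717 and 5026 CPM. The classes were drawn from the same cells, and the lists hold genes by which the paper named them, so this does not check the labels. These markers also differed by genotype. With both V943R libraries below both WT libraries, the log2 ratio of V943R over WT was -0.17 for the ML markers in ML, -0.23 for the ML markers in LP, -0.12 for the LP markers in LP and -0.30 for the LP markers in LI. The LP markers in ML were slightly higher in both V943R libraries (0.07). Their part in the Sox differences was not tested. *Erbb3* itself was lower in both V943R libraries in ML (27.1 and 28.6 CPM) than in both WT libraries (59.3 and 61.1 CPM), but 3′ tags do not read the altered codon and this does not check the allele.

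*Sox4* and *Sox9* made up nearly all of the Sox message in these cells. Over all cells, *Sox4* had 88844 UMIs (656 CPM) and *Sox9* had 79776 (589 CPM), which were 49.5% and 44.5% of the 179328 UMIs of all 19 Sox genes. *Sox10* followed with 5347 UMIs (39.5 CPM) and 2.98% of the total. *Sox11* had 33 UMIs in 32 cells, or 0.244 CPM. In 3′ libraries each UMI stands for 1 molecule whatever its length, so these levels can be set beside each other, although capture may differ between genes. For each group of cells the UMIs were summed over the cells before the level was taken. The intervals quoted are 95% intervals for counting error only.

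The members were spread over the luminal classes in different ways. In WT, *Sox4* stood at 824 CPM in LP, 612 CPM in LI and 544 CPM in ML, a log2 ratio of LP over ML of 0.60 (0.56 to 0.64). *Sox9* ran the other way, at 354 CPM in LP, 620 CPM in LI and 642 CPM in ML, with LP over ML at -0.86 (-0.91 to -0.80). *Sox10* was a gene of the LP end, at 203 CPM in LP, 70.8 CPM in LI and 2.22 CPM in ML. Its LP level was 91.3-fold its ML level in WT and 97.6-fold in V943R. Whether the ML level lies above background could not be told from the few cells of the rare clusters. These folds therefore hold only for the levels as measured. These classes were drawn from the same cells, so the differences describe the classes. Trimmed-mean scaling between the classes moved all LP over ML ratios down by 0.28 in WT and 0.32 in V943R on the log2 scale, which left the direction of the WT values of all 3 genes as given.

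**Figure D1:**
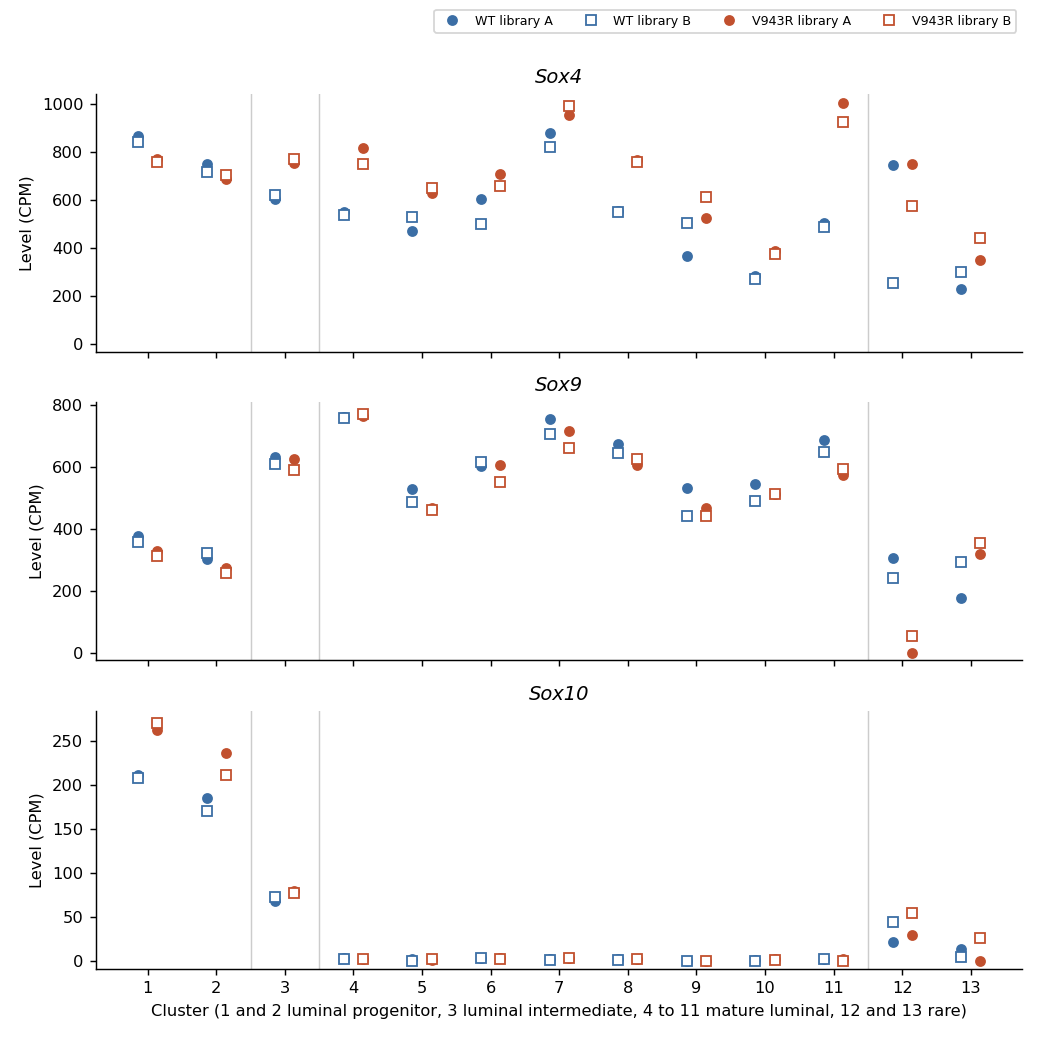
Level of *Sox4*, *Sox9* and *Sox10* (CPM, 1 panel per gene) in each of the 13 clusters, with 1 point per library, WT in blue and V943R in red, library A filled and library B open. *Sox4* in clusters 3 to 11 was higher in both V943R libraries than in both WT libraries, *Sox9* was lower in clusters 1 and 2 than in clusters 3 to 11, and *Sox10* was near 0 in clusters 4 to 11.

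Within the classes the clusters differed as well, as the plot of levels by cluster shows. WT *Sox4* was highest in cluster 1, the larger LP cluster, at 851 CPM (829 to 874) and in ML cluster 7 at 848 CPM (831 to 866), and those intervals overlap. Below them came cluster 2 at 733 CPM and cluster 3 at 612 CPM, then clusters 8, 6 and 4 at 553, 550 and 544 CPM, which could not be ordered. Cluster 10 was lowest among luminal clusters at 277 CPM (267 to 288), 3.06-fold below cluster 7 although both are ML. WT *Sox9* was highest in cluster 4 at 758 CPM (739 to 778) and cluster 7 at 728 CPM (712 to 744), and lowest among luminal clusters in cluster 2 at 313 CPM (289 to 339). *Sox10* reached 210 CPM in cluster 1 and 178 CPM in cluster 2. In cluster 9 no *Sox10* UMI was counted in 898 cells, where 3 UMIs would be 2.18 CPM.

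Between genotypes, *Sox4* in V943R lay above WT in ML and LI and below WT in LP. In ML, *Sox4* stood at 552 and 536 CPM in WT libraries A and B and at 743 and 737 CPM in V943R libraries A and B. The V943R libraries lay well apart from the WT libraries, and the log2 ratio of V943R over WT was 0.44 (0.42 to 0.47). In LP the WT libraries stood at 836 and 813 CPM and the V943R libraries at 752 and 744 CPM. Here both V943R libraries were below both WT libraries, with a log2 ratio of -0.14 (-0.19 to -0.09). LI went with ML, at 602 and 621 CPM in WT and 754 and 769 CPM in V943R, a log2 ratio of 0.32 (0.26 to 0.37). The ratio in ML was higher than that in LP by 0.58 (0.53 to 0.64) and the ratio in LI by 0.46 (0.38 to 0.53). Each genotype was 1 pool, so the difference between classes was not tested over mice.

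The WT gradient of *Sox4* between the classes was not seen in V943R. There *Sox4* stood at 748 CPM in LP, 761 CPM in LI and 740 CPM in ML, and LP over ML was 0.02 (-0.02 to 0.05), against 0.60 in WT. With trimmed-mean scaling the V943R value became -0.30 and the WT value 0.32. Of 10894 genes with at least 50 UMIs in the genotype with more in both classes, 253 (2.32%) had both V943R libraries below both WT in LP and above them in ML, *Sox4* among them.

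**Figure D2:**
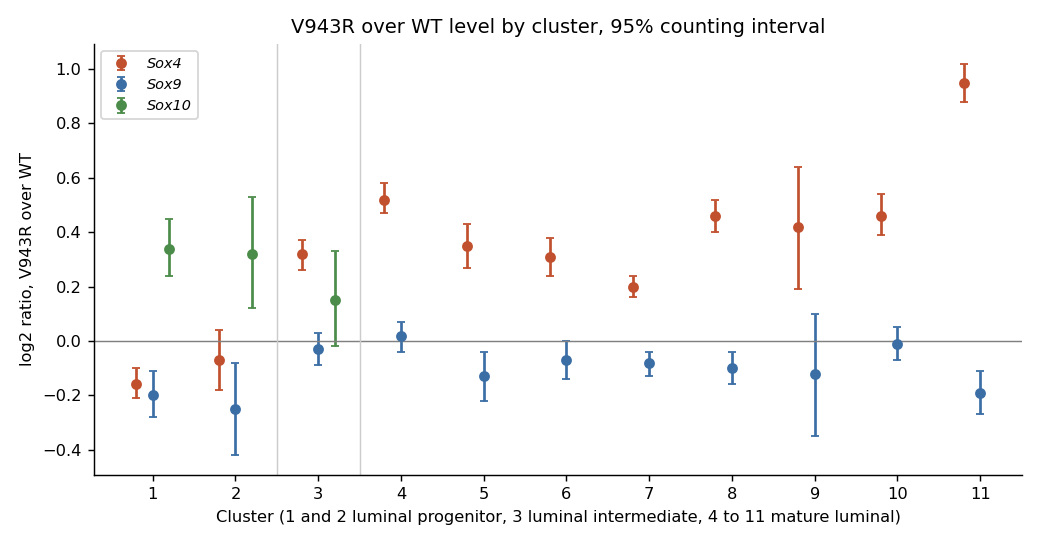
Log2 ratio of V943R over WT for *Sox4*, *Sox9* and *Sox10* in luminal clusters 1 to 11 (*Sox10* only in clusters 1 to 3, the clusters with enough of its UMIs), with bars for the 95% counting interval. *Sox4* lay below 0 in clusters 1 and 2, between 0.20 and 0.52 in clusters 3 to 10 and at 0.95 in cluster 11, while *Sox9* lay between -0.25 and 0.02 throughout.

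The sign of the *Sox4* difference was the same within the clusters of each class. In cluster 1 the log2 ratio of V943R over WT was -0.16 (-0.21 to -0.10) and in cluster 2 it was -0.07, with an interval that includes 0 (-0.18 to 0.04). In each of clusters 3 to 11 both V943R libraries were above both WT libraries, from a ratio of 0.20 (0.16 to 0.24) in cluster 7, where WT was already high, to 0.46 (0.39 to 0.54) in cluster 10, 0.52 (0.47 to 0.58) in cluster 4 and 0.95 (0.88 to 1.02) in cluster 11. Of 2338 genes with at least 50 UMIs in each of those 9 clusters, 51 (2.18%) were above in all of them. Of 2274 genes that also had the UMIs in clusters 1 and 2, 1 (0.0440%) was above in clusters 3 to 11 and below in both LP clusters, and this gene was *Sox4*. That pattern was written down from the values of *Sox4* itself, so its rarity is a description and no support.

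Cluster 11, an ML cluster that held 2863 WT cells and 670 V943R cells, had the widest *Sox4* difference. *Sox4* stood there at 504 and 488 CPM in WT and at 1003 and 924 CPM in V943R, a 1.93-fold difference, and both V943R libraries were far above both WT libraries. Among 10223 genes with enough UMIs, *Sox4* had the 28th highest ratio. The rule used to call a difference was a fold of at least 1.5 with at least 50 UMIs and both V943R libraries beyond both WT libraries. *Sox4* in cluster 11 was the only difference of a member that met it in all cells, LP, LI, ML or cluster 11. That rule called 5.87% of genes in cluster 11 in either direction and 2.70% as higher, 4.41% in all cells, 2.83% in LP, 3.86% in LI and 4.43% in ML. Since *Sox4* was selected with this difference in view, nothing is read from these shares. Without cluster 11 the ML ratio was 0.40 (0.37 to 0.42), so the difference in ML did not rest on it. The ratio in cluster 11 was higher than in the other ML cells by 0.56 (0.48 to 0.63). A cluster drawn from these values may hold different cells in the 2 genotypes, and a different makeup of the cluster and a different amount of *Sox4* RNA per cell cannot be told apart in it.

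*Sox4* molecules were unevenly spread over the cells. After each cell was thinned to 1000 UMIs, with 12 WT and 74 V943R cells of ML left out as shallower, 29.6% (28.9 to 30.4) of WT ML cells and 37.6% (36.6 to 38.5) of V943R ML cells held a *Sox4* UMI (56.6% and 66.4% without thinning). Cells with at least 3 *Sox4* UMIs made up 5.83% of ML in WT and 8.78% in V943R. The variance over the mean of *Sox4* was 2.45 and 2.43 in ML, against 1.31 and 1.30 for *Sox9*, where random draws from cells of equal level would give about 1. In LP it was 1.59 and 1.68. Within single ML clusters it was 2.77 and 2.25 in cluster 7 and 2.22 and 2.94 in cluster 11. In cluster 11 the share with 5 or more *Sox4* UMIs was 1.33% in WT and 3.44% in V943R. In LP, where 32 WT and 173 V943R cells were left out, 49.5% of WT cells and 45.7% of V943R cells held a *Sox4* UMI (70.6% and 66.8% without thinning).

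**Figure D3:**
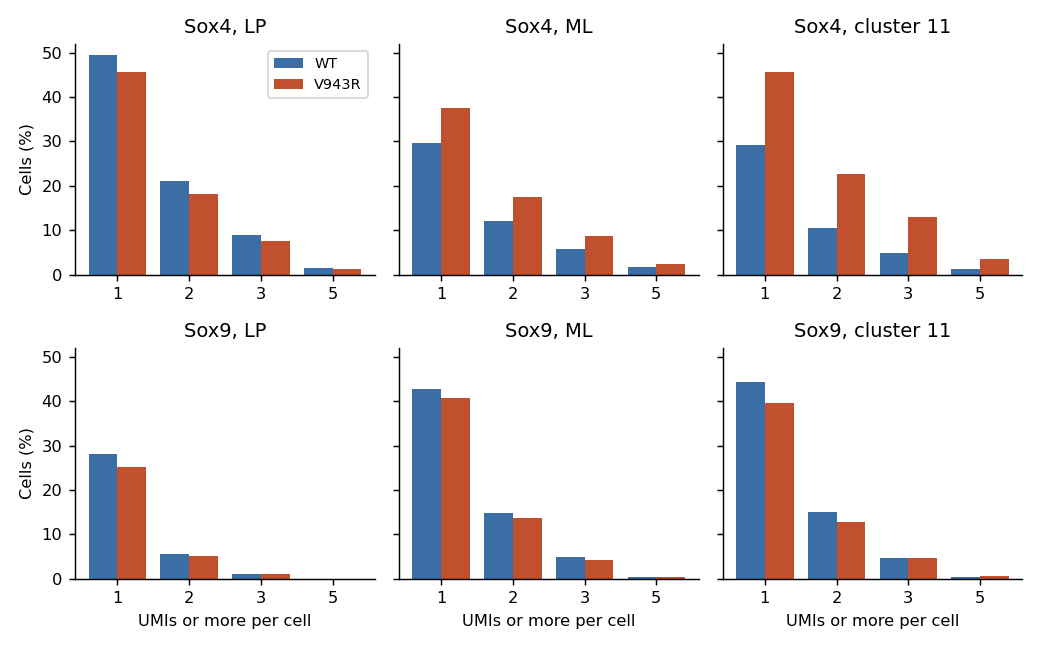
Share of cells (%) with at least 1, 2, 3 or 5 UMIs of *Sox4* (upper row) or *Sox9* (lower row) after thinning to 1000 UMIs per cell, in LP, ML and cluster 11, WT in blue and V943R in red. For *Sox4* the V943R bars were the higher in ML and cluster 11 at every number of UMIs and the lower in LP, and for *Sox9* the share with at least 1 UMI was lower in V943R in all 3 panels.

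The rare clusters were set beside these shares as a background. RNA made by their own cells and free RNA cannot be told apart in them. With the same thinning, *Sox4* was found in 30.2% (17.2 to 46.1) of 43 WT cells of cluster 12, which holds endothelial and stromal cells, and in 14.5% (7.7 to 23.9) of 83 WT cells of cluster 13, which holds immune cells, at median depths of 1985 and 1899 UMIs against 2018 in LP and 3508 in ML. The V943R shares were 42.4% (25.5 to 60.8) of 33 cells in cluster 12 and 22.1% (13.4 to 33) of 77 cells in cluster 13, with 4 cells of the latter left out as shallower. In each genotype the ML share (29.6% and 37.6%) was above that of cluster 13 and within the interval of cluster 12. Cluster 12 holds few cells, which may make *Sox4* themselves, so these shares do not settle how far *Sox4* in ML lies above free RNA. ML cluster 10, at 277 CPM in WT and 382 CPM in V943R, had shares of 19.6% and 24.7%, within the intervals of cluster 13. In cluster 13 *Sox4* stood at 280 CPM in WT and 395 CPM in V943R, with both V943R libraries above both WT libraries and a log2 ratio of 0.50 (0.04 to 0.95), from 75 and 93 UMIs. In cluster 12 the ratio was 0.54 (-0.07 to 1.14), from 51 and 46 UMIs and with overlapping libraries. Both intervals take in the ML ratio of 0.44, and the part of free RNA in the *Sox4* difference was not tested. In LP the WT share of *Sox4* (49.5%) was above the interval of cluster 12 and the V943R share (45.7%) was within it. For *Sox9* the WT shares were 20.9% (10 to 36) in cluster 12 and 12% (5.93 to 21) in cluster 13, against 28.1% in LP and 42.8% in ML, so the LP share was within the interval of cluster 12 and the ML share above it. In V943R the shares were 3.03% (0.0767 to 15.8) and 11.7% (5.49 to 21), against 25.3% in LP and 40.7% in ML, both above the intervals of the rare clusters. For *Sox10* the LP shares were 18.7% in WT and 22.6% in V943R, against 1 of 43 WT cells in cluster 12 and 0 of 83 in cluster 13. A count of 0 there allows a share of cells with a UMI of up to 3.61%, taken as 3 cells of 83, and the 95% interval reached 4.35%. The ML shares of *Sox10* were 0.219% in WT and 0.252% in V943R. The WT intervals reached 12.3% in cluster 12 and 4.35% in cluster 13. These few cells therefore cannot show whether *Sox10* in ML lies above background.

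*Sox9* was lower in V943R in LP and nearly level between genotypes in ML and LI. In ML it stood at 658 and 628 CPM in WT libraries and at 625 and 609 CPM in V943R libraries. The V943R libraries were the lower, by a margin smaller than the gap between the WT libraries, and the log2 ratio was -0.06 (-0.08 to -0.04). Without cluster 11 the libraries overlapped, with a ratio of -0.05 (-0.07 to -0.02). In LP it stood at 359 and 350 CPM in WT and 316 and 299 CPM in V943R, a log2 ratio of -0.21 (-0.28 to -0.13), with both V943R libraries below both WT libraries. In LI the libraries overlapped, with a ratio of -0.03 (-0.09 to 0.03). In cluster 11 the ratio was -0.19 (-0.27 to -0.11), on the opposite side from *Sox4* in the same cells. In the rare clusters *Sox9* had 30 UMIs in WT and 2 in V943R in cluster 12, a ratio of -3.22 (-6.33 to -1.24), and a ratio of 0.36 (-0.12 to 0.84) in cluster 13. The log2 ratio of *Sox9* in ML was higher than that in LP by 0.15 (0.07 to 0.23), beside 0.58 for *Sox4*.

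*Sox10* was higher in V943R in LP. It stood there at 206 and 200 CPM in WT libraries and at 256 and 257 CPM in V943R libraries, with no overlap. The log2 ratio was 0.34 (0.25 to 0.43), at the 1020th place from the top among 11219 genes. In LI it stood at 68.6 and 73.2 CPM in WT and at 80.1 and 77.5 CPM in V943R, and the ratio of 0.15 (-0.02 to 0.33) had an interval that includes 0. Over all cells the ratio was 0.54 (0.46 to 0.62), but with both genotypes weighted to the cluster shares of WT it was 0.22. LP cells were 3181 of 18638 in WT and 3123 of 13801 in V943R. In LP *Sox10* and *Sox4* lay on opposite sides of WT. In ML the 126 and 120 UMIs of *Sox10* gave a ratio of 0.24 (-0.13 to 0.62), with overlapping libraries. Without WT library A it was 0.58 (0.10 to 1.08) and without WT library B -0.05 (-0.48 to 0.39), so no direction is read from it. *Sox10* is also a gene of Schwann cells, and the 8 Schwann and neural crest markers stood at 33.6 CPM in WT LP cells and 30.5 CPM in V943R LP cells together, with *Ngfr* and *Foxd3* at 0 and UMIs of the other 6. Their sum in WT was 25.8 CPM in LI and 15.9 CPM in ML. It had the order of classes of *Sox10* but a far smaller fall than that of *Sox10*, from 203 to 2.22 CPM. This order was not particular to these markers: the 9 basal markers stood at 67.5, 39.6 and 23 CPM in WT LP, LI and ML. The part of the Schwann and neural crest markers in the levels of *Sox10* was not tested.

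*Sox11* stayed at the floor of the assay. The WT libraries gave 11 and 8 of its UMIs, and the V943R libraries gave 4 and 10. None was counted in WT LP cells, where 3 UMIs would be 0.352 CPM. Over all cells, with overlapping libraries and a log2 ratio of -0.21 (-1.32 to 0.86), no difference was detectable at this depth.

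Across all genes the share with both V943R libraries above both WT was 31.8% in all cells, 23.1% in LP, 23.2% in LI, 27.6% in ML and 24.9% in cluster 11, and the share with both below was 22.5%, 18.1%, 22.5%, 26.7% and 18.7%. Libraries that do not overlap were therefore common. *Sox4* was the 982nd of 15157 genes from the top in ML and the 1830th of 11219 from the bottom in LP. *Sox9* was the 1079th from the bottom in LP.

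Depth per cell was higher in V943R ML cells (median 4070 UMIs) than in WT (3508). With the cells divided into 5 equal bins of UMIs per cell over both genotypes, the *Sox4* ratio in ML was 0.29 in the shallowest bin and 0.41 to 0.52 in the others. In LP the 5 ratios of *Sox4* ran from -0.33 to -0.02 and in cluster 11 from 0.67 to 1.22, so the side was the same in every bin of these groups. For *Sox10* in LP the ratio was 0.09 in the shallowest bin and 0.33 to 0.43 in the others. For *Sox9* in ML it was -0.26 in the shallowest bin and -0.08 to -0.01 in the others. The 10 genes of dissociation stress also differed by genotype, and together they were lower in V943R in LP by a log2 ratio of -0.31, in LI of -0.38, in ML of -0.26 and in cluster 11 of -0.19, in both libraries each. Of these 10 genes, 1 was called higher and 0 lower in LP and in LI, where 2.83% and 3.86% of all genes were called in either direction. Their part in the result was not tested. The 5 fibroblast markers together stood at 15 and 13.8 CPM in WT ML libraries and at 5.43 and 4.38 CPM in V943R ML libraries. In cluster 11 they stood at 34.4 and 38.3 CPM in WT and at 22.3 and 8.27 CPM in V943R, a log2 ratio of -1.33. The 1 fibroblast marker assessed was called lower in ML and in cluster 11, where 4.43% and 5.87% of all genes were called in either direction. The 6 markers of proliferation together were at 284 CPM in WT ML cells and 312 CPM in V943R ML cells, a log2 ratio of 0.14, or -0.03 without cluster 11. In LI they were at 107 and 83.9 CPM in WT libraries and 132 and 152 CPM in V943R libraries, a ratio of 0.57, with 2 of the 5 assessed called higher (*Mki67* and *Birc5*), where 3.86% of all genes were called in either direction. The ratio was -0.02 in LP, with overlapping libraries, and 0.43 in cluster 11. By cluster it ran from -0.15 in cluster 6 to 0.71 in cluster 4 within ML, and was 0.37 in cluster 1, where *Sox4* was lower in V943R. The 6 immune markers together were low but higher in V943R, at 3.06 and 4.08 CPM in WT and 7.16 and 4.51 CPM in V943R libraries in ML, a ratio of 0.69, and with a ratio of 0.97 in cluster 11, while in LI the ratio was -0.86 with overlapping libraries. The 1 immune marker assessed in ML, *Cd74*, was called higher, and *Ptprc* had 1 UMI in each genotype. The 9 basal markers stood in LI at 38.3 and 41 CPM in WT and 52.7 and 51.1 CPM in V943R libraries, a ratio of 0.39, with *Acta2* called higher of 4 assessed, and in ML the ratio was -0.22. The part of these marker groups in the *Sox4* difference was not tested. The 5 endothelial markers were near 0 in ML, at 1.02 and 0.898 CPM.

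*Sox4* and *Sox9* were found in the same ML cells slightly more often than their shares would give. In ML thinned to 1000 UMIs, the number of cells with both was 1.04 to 1.09 of the product of the shares over the 4 libraries, with an interval above 1 in WT library B (1.01 to 1.16) and V943R library B (1.02 to 1.17). Thinned to 2000 UMIs it was 1.03 to 1.06, with intervals of 1.01 to 1.1 in WT library A and 1 to 1.1 in WT library B, and both V943R intervals took in 1. Without thinning, where deeper cells show both genes more often, it was 1.04 to 1.06, with all 4 intervals above 1. ML also pools clusters that differ in both genes, and their part in this excess was not tested. In LP thinned to 1000 UMIs the number with both was 0.869 to 0.999 of the product, and all 4 intervals reached or took in 1. *Sox4* with *Sox10* in LP gave 1 to 1.14 and *Sox9* with *Sox10* gave 0.929 to 1.11. Without thinning *Sox9* with *Sox10* in LP gave 1.06 to 1.16, with an interval above 1 in WT library A (1.04 to 1.29) and V943R library A (1.01 to 1.27). Over the 13 clusters, all libraries summed, Pearson's r of log2(CPM + 1) was 0.27 for *Sox4* and *Sox9*, 0.36 for *Sox4* and *Sox10* and -0.56 for *Sox9* and *Sox10*, as a description of clusters that share libraries.

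Other Sox genes also divided between the classes. In WT, *Sox6* stood at 23.1 CPM in LP and 0.211 CPM in ML, *Sox14* at 9.74 and 0.0352 CPM, *Sox8*, the SoxE relative of *Sox9* and *Sox10*, at 7.98 and 0.264 CPM, and *Sox5*, which pairs with *Sox6* in cartilage, at 5.63 and 0.0704 CPM. *Sox12*, the SoxC relative of *Sox4*, was a gene of ML, at 7.39 CPM in LP and 17.7 CPM in ML, and *Sox15* stood at 1.06 and 5.85 CPM. In ML the log2 ratio of V943R over WT was 0.13 (-0.00 to 0.26) for *Sox12*, beside 0.44 for *Sox4*. In LI *Sox12* stood at 18.6 and 13.2 CPM in WT libraries and 22.8 and 24.1 CPM in V943R libraries, a ratio of 0.56 (0.21 to 0.90) beside 0.32 for *Sox4*, and in cluster 11 its ratio was 0.36 (-0.11 to 0.82). *Sox18*, a gene of endothelial cells, reached 116 CPM in WT cluster 12 and 0.0176 CPM in ML. No UMI of *Sox1*, *Sox2* or *Sox3* was counted. Of the 15 other Sox genes, 5 had enough UMIs in LP and 3 in ML to be assessed, and none was called in either, where 2.83% and 4.43% of all genes were called. Their median log2 ratio was -0.08 in LP and -0.06 in ML, beside 0.02 and 0.00 for all genes assessed. In LI 1 of 4 was called, *Sox15*, with 6.89 CPM in WT and 3.35 CPM in V943R, where 3.86% of all genes were called.

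**Figure D4:**
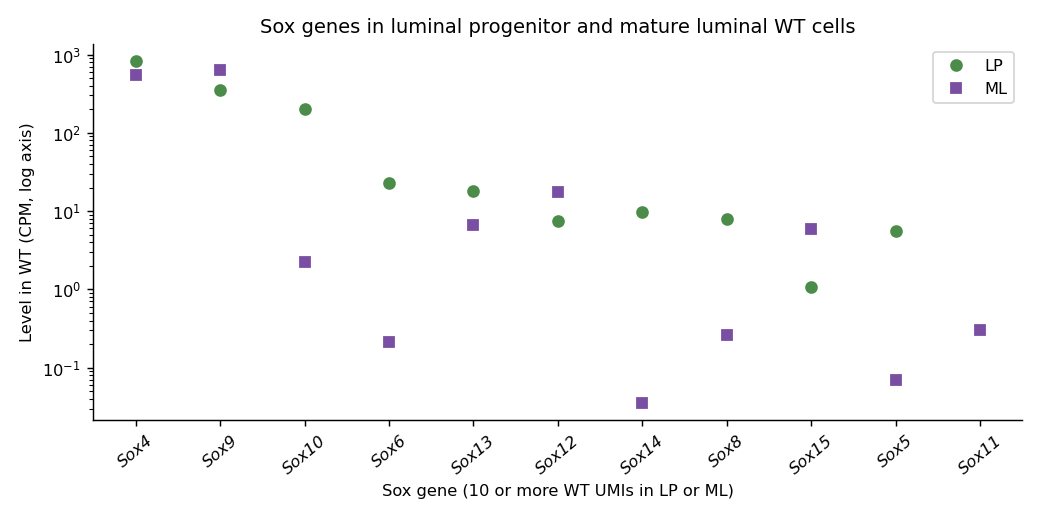
Level in WT (CPM, log axis) of each Sox gene with at least 10 WT UMIs in LP or ML, in LP cells (green circles) and ML cells (purple squares), and a gene with no UMI in a class has no symbol there. *Sox10*, *Sox6*, *Sox14*, *Sox8* and *Sox5* lay far higher in LP, and *Sox9*, *Sox12* and *Sox15* higher in ML.

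Genes linked to the members in other tissues were also assessed. Of 15 such genes, 6 could be assessed in LP, with 0 called higher and 1 lower (*Erbb3*), where 2.83% of all genes were called in either direction. In LI and in cluster 11 the counts were also 0 higher and 1 lower (*Erbb3*) of 6 assessed, beside 3.86% and 5.87%. In ML 0 were called higher and 2 lower of 9 assessed, beside 4.43%, with *Erbb3* among them and the other not reported here. The median log2 ratio of those assessed in LP was -0.02, beside 0.02 for all genes assessed. *Erbb3*, a known target of *Sox10* in the neural crest, was lower in LP with a log2 ratio of -0.87 (-1.07 to -0.67) and *Sox10* was higher there. *Erbb3* is also the gene whose locus was altered in the mutant, so nothing about *Sox10* is read from its level. *Tead2*, a Hippo pathway factor described as a target of SoxC proteins, stood in cluster 11 at 224 and 229 CPM in WT and 276 and 293 CPM in V943R, a ratio of 0.33 (0.21 to 0.46). It was not called there. Of the 6 listed genes assessed in cluster 11, it was the 1 with both V943R libraries above both WT, and 2 had both below. Among all genes these shares were 24.9% and 18.7%. The median ratio of the 6 was 0.01, beside 0.03 for all genes assessed. In ML the *Tead2* ratio was 0.14 (0.11 to 0.18), in LI 0.22 (0.13 to 0.31) and in LP 0.07 (-0.04 to 0.17), so *Tead2* was not lower in LP as *Sox4* was. *Ezh2*, a Polycomb methyltransferase regulated by *Sox4* in other epithelial cells, had ratios of 0.09 (-0.01 to 0.18) in ML and -0.01 (-0.17 to 0.16) in LP. The cartilage genes *Col2a1* and *Acan*, targets of *Sox9*, had no UMI in LP and the neuronal gene *Dcx* had none in ML.

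By pattern over the 13 clusters, the gene most like *Sox10* among 11709 genes was *Lgr6* (r = 0.99), a receptor for R-spondins, followed by *Hey1*, a Notch target, *Trim46*, *Fads1* and *Mtss1l*. The pattern of *Sox9* was nearest to that of *Tfap2b* (r = 0.98), which encodes transcription factor AP-2 beta, then *Trim29*, *Cmtm8*, 2310039H08Rik and *Gde1*. For *Sox4* the nearest was *Golim4* at a lower r of 0.86, then *Hspb1*, a small heat-shock protein, *Kif3a*, *Pcbd1* and *Rnf145*.

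LI cells, which held *Sox9* near its ML level and *Sox10* between LP and ML, also had doublet scores above the rest: 49.5% of them lay among the 6% of cells with the highest scores in their library, against 3.79% of LP and 2.78% of ML cells. WT *Sox10* stood at 72.7 CPM (64.5 to 81.6) in the LI cells with such scores and at 68.8 CPM (60.3 to 78) in the other LI cells. Those other LI cells were also deep, at a median of 5085 UMIs in WT, against 2018 in LP and 3508 in ML. In V943R the medians were 6544 against 2067 and 4070. The other LI cells were not shown to be single cells. For *Sox4* the V943R levels in these LI groups were 759 and 764 CPM and the WT levels 632 and 589 CPM, so V943R was the higher in both. The part of doublets in the levels of LI was not tested.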

How the data were processed

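The authors deposited 1 table that gives a signal for every gene in every cell and also names each cell's library, genotype, cluster and luminal class. Per the labels the reads were processed with bcl2fastq 2.20, CASAVA 1.8 and GSNAP 2013-10-10 on GRCm38, and the clusters came from Partek Flow with Seurat. The deposited signal of a cell is its UMIs times 1 factor. Dividing by the smallest nonzero value of the cell gave whole numbers for 100% of 60853305 nonzero values within 0.02, and these were taken as UMIs. All deposited cells were used. Library letters follow the order of the library numbers and are not matched to the replicate numbers of the samples. UMIs were summed and expressed as CPM. For levels the 95% interval is the exact Poisson interval, for shares that of Clopper and Pearson, for log2 ratios that of an exact binomial conditional on the summed UMIs, and for differences of ratios a normal approximation. These cover counting error only. No model or p-value compares genotypes, as each was 1 pool of mice.

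Named genes were the members, the 15 other Sox genes, 15 genes linked to Sox factors (single results of some listed genes are not reported here), and the 5 genes most like each member among those with at least 500 UMIs. The members, the lists and the rules were chosen with earlier results of these data known. Thinning used hypergeometric draws (seed 1). Scrublet in scanpy 1.11.5 called 1 doublet in 32439 cells and so did not work as a caller, and its scores were used instead: the 6% of cells with the highest scores in each library were left out as an alternative. Other alternatives left out a library, the 10% shallowest or 5% deepest cells, or changed the scaling. Python 3.11.15, numpy 2.4.6, scipy 1.17.1 and Biopython 1.88 were used. The call rule and the interval of the log2 ratio were tried on simulated Poisson counts, which hold no spread beyond counting error. The other intervals were not tried.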

Additional observations from a re-analysis of the deposited data

Results flagged for a closer look

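*Sox4* was flagged because V943R lay on opposite sides of WT in LP and in ML. Of 10894 genes, 253 (2.32%) had both V943R libraries below both WT in LP and above them in ML. The pattern was read from the values of *Sox4* itself, so it does not set this gene apart. In both V943R libraries *Sox4* was lower than in both WT libraries in LP (-0.14 as a log2 ratio) and higher in ML (0.44), which gives a difference of 0.58 (0.53 to 0.64 for counting error). With 1 pool of mice for each genotype, the difference was not tested.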

How the results depend on the processing

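Over 150 alternatives of the 14 V943R over WT log2 ratios, 121 stayed within the counting interval, 29 moved outside it and 0 of those whose interval excluded 0 changed sign. The ratio of *Sox4* in LP stayed within its interval under every alternative tried. With trimmed-mean scaling the *Sox4* ratio became 0.32 in all cells, 0.42 in ML and 0.86 in cluster 11, and the *Sox9* ratio -0.12 in all cells, -0.08 in ML and -0.28 in cluster 11. As a mean over cells the ratios in all cells were 0.30 for *Sox4*, -0.15 for *Sox9* and 0.66 for *Sox10*, and that of *Sox9* in ML was -0.10. Weighted to the cluster shares of WT, *Sox4* gave 0.37 in all cells and 0.47 in ML, and *Sox10* gave 0.22 in all cells. As shares of cells with a UMI after thinning, *Sox4* gave 0.26 in all cells, 0.34 in ML and 0.65 in cluster 11, and *Sox9* gave -0.11 in all cells. Without the deepest cells *Sox9* gave -0.11 in all cells, without the shallowest cells *Sox10* gave 0.63, and without the highest doublet scores *Sox4* in LI gave 0.38. Without cluster 11, an alternative chosen after seeing the data, *Sox4* in ML gave 0.40.

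For LP over ML, trimmed-mean scaling gave 0.32 (WT) and -0.30 (V943R) for *Sox4*, -1.14 and -1.33 for *Sox9*, and 6.23 and 6.29 for *Sox10*. *Sox4* in WT gave 0.65 without the deepest cells and 0.66 as a mean over cells. *Sox9* gave -0.92 in WT and -1.10 in V943R without the highest doublet scores. *Sox10* in V943R gave 6.96 without the deepest cells and 6.95 as a mean over cells. Leaving out each library in turn gave 0.33 to 0.37 for *Sox4* and -0.12 to -0.05 for *Sox9* in all cells, 0.42 to 0.47 and -0.09 to -0.03 in ML, and 6.24 to 6.83 for LP over ML of *Sox10* in WT. The causes of these shifts were not tested.

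The number of genes called, 318 in LP, 672 in ML and 600 in cluster 11, became 845, 1298 and 1242 with a minimum of 20 UMIs, 128, 384 and 233 with 100 UMIs, and 28, 113 and 103 with a fold of 2. With a fold of 2 *Sox4* in cluster 11 (1.93-fold) is not called. No paired analysis was made, because each genotype was its own pool and the labels pair no WT library with a V943R library. No test was made either. Depth limits *Sox11* everywhere and *Sox10* outside LP and LI. Each genotype was 1 pool of 3 mice, so no interval given here covers the spread between mice.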
